A study of Mus musculus with 2 samples.

Results

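The Il17-expressing T cells were the kept cells that held at least 1 unique molecular identifier (UMI, the tag that counts a captured RNA molecule) of Il17a or Il17f and at least 1 UMI of Cd3d, Cd3e or Cd3g, the genes of the CD3 chains of the T cell receptor complex. They were 75 of 5302 kept cells, 3 of 2636 in the day 28 library and 72 of 2666 in the day 0 library. Cells with under 500 genes, or with over 10% of their UMIs from mitochondrial genes, were left out. The 72 day 0 cells, called Il17 T cells here, were set beside 1066 other Cd3-positive cells of day 0, which held at least 2 Cd3 UMIs and no Il17a or Il17f UMI. The cells were chosen by the measured UMIs of these 5 genes, so the levels of those genes are given as a description only.

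The series held 1 droplet single-cell library per group. The day 28 library came from the hindlimb muscle of mice 28 days after hindlimb ischemia surgery, and the day 0 library from the hindlimb muscle of mice that had no surgery. All mice were Fsp1-Cre: R26R-EYFP, and YFP-positive, CD11b-negative cells were sorted from the muscle by flow cytometry. Fsp1 is another name for S100a4, so a cell carries the YFP mark if Cre driven by the S100a4 promoter acted in it or in a cell it descends from, whether or not it still transcribes S100a4. The CD11b gate (CD11b is the product of Itgam) removes most myeloid cells, and the sort sets which cell types can be counted at all. The number, age and sex of the mice behind each library are not given in the sources used here. With 1 library per group, no test between days or between cell sets was possible: all 95% intervals below are exact, cover counting error only and do not contain the spread between animals.

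Interleukin 17A and interleukin 17F are secreted cytokines that act on fibroblasts, endothelial cells and epithelial cells and induce chemokines that draw neutrophils. T cells that make them include CD4 helper cells of the Th17 kind, gamma delta T cells that acquire the programme in the thymus, and invariant T cells. The programme is built on nuclear receptors of the ROR family, among them ROR alpha (from Rora), is sustained by interleukin 23 and interleukin 1, and is marked by the chemokine receptor CCR6. Many such cells live in tissues and do not recirculate.

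The 250 bases before the annotated start of both cytokine genes are shown because these genes define the cells and were detected together in many of them. They are RefSeq sequences on mouse GRCm38.p6, chr1:20730655-20730904 on the plus strand for Il17a and chr1:20784271-20784520 on the minus strand for Il17f, written 5′ to 3′. Capitals mark AGGTCA, the core element that ROR nuclear receptors are known to bind, searched on both strands and written as TGACCT where it lies on the opposite strand.
Il17a: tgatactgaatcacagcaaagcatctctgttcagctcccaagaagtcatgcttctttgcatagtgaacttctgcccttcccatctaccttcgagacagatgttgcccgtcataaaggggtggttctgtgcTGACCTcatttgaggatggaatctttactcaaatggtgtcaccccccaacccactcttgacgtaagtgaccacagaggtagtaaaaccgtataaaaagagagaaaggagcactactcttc
Il17f: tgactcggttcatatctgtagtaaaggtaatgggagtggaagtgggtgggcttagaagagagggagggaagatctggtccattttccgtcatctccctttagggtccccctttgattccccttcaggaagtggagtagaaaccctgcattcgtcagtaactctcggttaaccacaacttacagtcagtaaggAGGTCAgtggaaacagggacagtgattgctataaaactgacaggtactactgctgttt
The Il17a match lay on the opposite strand and began 120 bases before the start, and the Il17f match lay on the gene's strand and began 58 bases before it. AGGTCA occurred on either strand in 4607 of 32851 RefSeq promoter windows of this length (14.0%), so the matches describe these letters and show no binding.

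Nearly all Il17-expressing T cells, 72 of 75, were in the day 0 library. They made up 0.114% of kept day 28 cells (3 of 2636, 95% interval 0.0235 to 0.332) and 2.70% of kept day 0 cells (72 of 2666, 2.12 to 3.39). Cd3-positive cells as a whole were also scarcer at day 28, where 304 of 2636 cells (11.5%) held a Cd3 UMI, against 1339 of 2666 (50.2%) at day 0. Among cells with a Cd3 UMI, 3 of 304 (0.987%, 0.204 to 2.86) held an Il17 UMI at day 28 and 72 of 1339 (5.38%, 4.23 to 6.72) did so at day 0. The share of Il17-positive cells was thus lower at day 28 within Cd3-positive cells as well.

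The 3 day 28 cells could not be told from background. Each held 1 Il17f UMI, no Il17a UMI and 1 Cd3 UMI. In cells without a Cd3 UMI, taken here as the background, an Il17 UMI was present in 7 of 2332 day 28 cells (0.300%, 0.121 to 0.617) and in 4 of 1327 day 0 cells (0.301%, 0.0822 to 0.770). The median total was 12819.5 UMIs in Cd3-positive cells and 12353 in Cd3-negative cells at day 28, and 4198 in Cd3-positive cells and 5952 in Cd3-negative cells at day 0. The day 28 interval among Cd3-positive cells contains the background share, while the day 0 interval lies above it. No Cd3-positive day 28 cell held 2 or more Il17 UMIs (0 of 304, which allows a share of up to 0.987%), against 55 of 1339 (4.11%) at day 0.

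All 3 day 28 cells also held UMIs of another lineage's markers. The share of all day 28 cells that did is not given here, so the counts below describe these 3 cells only. The cell with 33952 UMIs held 746 UMIs of neutrophil and myeloid precursor markers, and the cell with 10076 UMIs held 27 UMIs of B cell markers. The remaining cell had 8701 UMIs, 17 of them from the neutrophil and precursor list. Day 28 cells were sequenced more deeply (median 12387.5 UMIs per kept cell against 4844 at day 0). After each cell was thinned to 3000 UMIs, 1 of 2636 day 28 cells (0.0379%) and 59 of 2666 day 0 cells (2.21%) met the rule. The 2 libraries shared 13 cell barcodes, none of them an Il17 T cell of day 0. The account that follows is therefore of the 72 day 0 cells.

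Il17a and Il17f were detected unevenly across these cells. Il17a ranged over 0, 1 and 16 UMIs per cell (lowest, median and highest), Il17f over 0, 2 and 11, and their sum over 1, 3.5 and 21, with a mean of 5.08 ± 4.5 (SD over cells). The 72 cells held 178 of the 181 Il17a UMIs and 188 of the 189 Il17f UMIs of all kept day 0 cells. Both genes were seen in 34 cells, Il17f alone in 27 and Il17a alone in 11. Cells with both had a median of 7.5 Il17 UMIs, and those with Il17f alone or Il17a alone had medians of 2 and 1. The few highest cells carried much of the signal: 10 cells with 10 or more Il17 UMIs held 37.7% of all Il17 UMIs of the group.

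Near the threshold, 17 of the 72 cells held exactly 1 Il17 UMI, 10 held 2, 35 held 3 to 9 and 10 held 10 or more. Their Cd3 UMIs ranged over 1, 8 and 20, and 1 cell had exactly 1. Just outside the rule lay 1267 Cd3-positive cells with no Il17 UMI and 4 cells with 1 Il17 UMI but no Cd3 UMI. Total UMIs per cell were 3098, 4932 and 37390 in Il17 T cells and 3005, 3936 and 34532 in the other Cd3-positive cells. The median number of detected genes was 1697.5 in Il17 T cells and 1169 in the others.

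**Figure D1:**
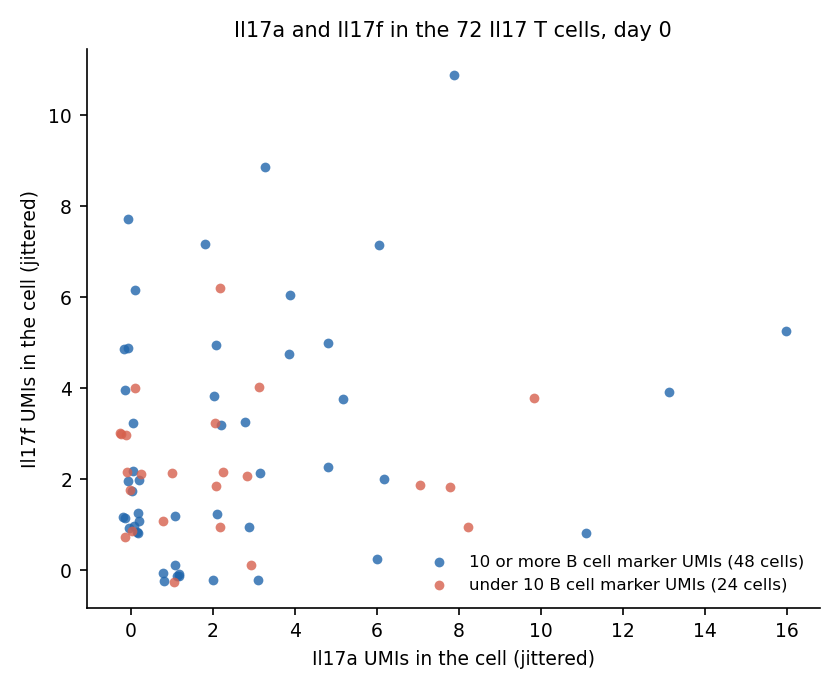
Il17a UMIs (x axis) and Il17f UMIs (y axis) in each of the 72 Il17 T cells of day 0, 1 point per cell with a small random offset, coloured by whether the cell held 10 or more UMIs of B cell markers. Cells with 10 or more B cell marker UMIs reach 16 Il17a and 11 Il17f UMIs, and the other Il17 T cells reach 10 Il17a and 6 Il17f UMIs.

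T cell genes outside the rule were present at levels close to those of other T cells. Pooled over cells and scaled to counts per 1000000 UMIs (CPM), Lat, an adaptor of T cell receptor signalling, stood at 525 CPM in Il17 T cells and 409 CPM in the other Cd3-positive cells. Thy1 stood at 502 CPM in Il17 T cells and 414 CPM in the others, Lck, the proximal kinase, at 279 CPM in Il17 T cells and 353 CPM in the others, Cd2 at 225 CPM in Il17 T cells and 229.7 CPM in the others, and Cd247, the CD3 zeta chain, at 109 CPM in Il17 T cells and 117 CPM in the others. The ratios of these 5 genes lay between 0.789 and 1.28. Defining genes of fibroblasts and muscle (Pdgfra, Col1a1, Col1a2, Col3a1, Dcn, Myh4, Ckm and Pax7) had 0 UMIs in Il17 T cells.

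RNA of other lineages was more frequent in Il17 T cells and is given before the gene results because it touches all of them. At least 10 UMIs of the 10 B cell markers (among them Cd79a, Cd79b and Ms4a1) were present in 48 of 72 Il17 T cells (66.7%, 54.6 to 77.3) and in 242 of 1066 other Cd3-positive cells (22.7%, 20.2 to 25.3). B cell marker UMIs per cell were 0, 43 and 405 in Il17 T cells and 0, 1 and 529 in the others, and their summed level was 8485 CPM in Il17 T cells and 4001 CPM in the others. The Il17 T cells fell into separate ranges on this measure, since none held between 9 and 21 B cell marker UMIs. At 3000 UMIs per cell the shares were 62.5% of Il17 T cells and 21.9% of the others, so the gap was of like size at equal depth. The part of this RNA in the results below was not tested, and the main genes are therefore also given among cells on the same side of it.

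Of the remaining lineage lists, the dendritic cell list differed in the same way and the others passed 10 UMIs in few cells. The dendritic cell list, which contains class II genes that B cells also express, passed 10 UMIs in 44 of 72 Il17 T cells (61.1%) and 214 of 1066 others (20.1%). Neutrophil and myeloid precursor markers did so in 4 of 72 Il17 T cells (5.56%) and 17 of 1066 others (1.59%), with up to 2081 UMIs in 1 Il17 T cell, and monocyte and macrophage markers in 4 of 72 Il17 T cells (5.56%) and 24 of 1066 others (2.25%). Adgre1, which encodes F4/80, was at 0 UMIs in Il17 T cells. Erythroid markers reached at most 8 UMIs in an Il17 T cell, with Alas2 and Car1 at 0, and passed 10 UMIs in 11 of 1066 others (1.03%). Of the 57 day 0 barcodes with the highest doublet scores, 1 was an Il17 T cell and 31 were other Cd3-positive cells. A pair of comparisons within like cells were made: 20 Il17 T cells with fewer than 10 UMIs of each of the 5 lists against 792 others of that kind (called low in other lineages), and 48 Il17 T cells against 242 others that held 10 or more B cell marker UMIs (called B cell RNA-rich).

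**Figure D2:**
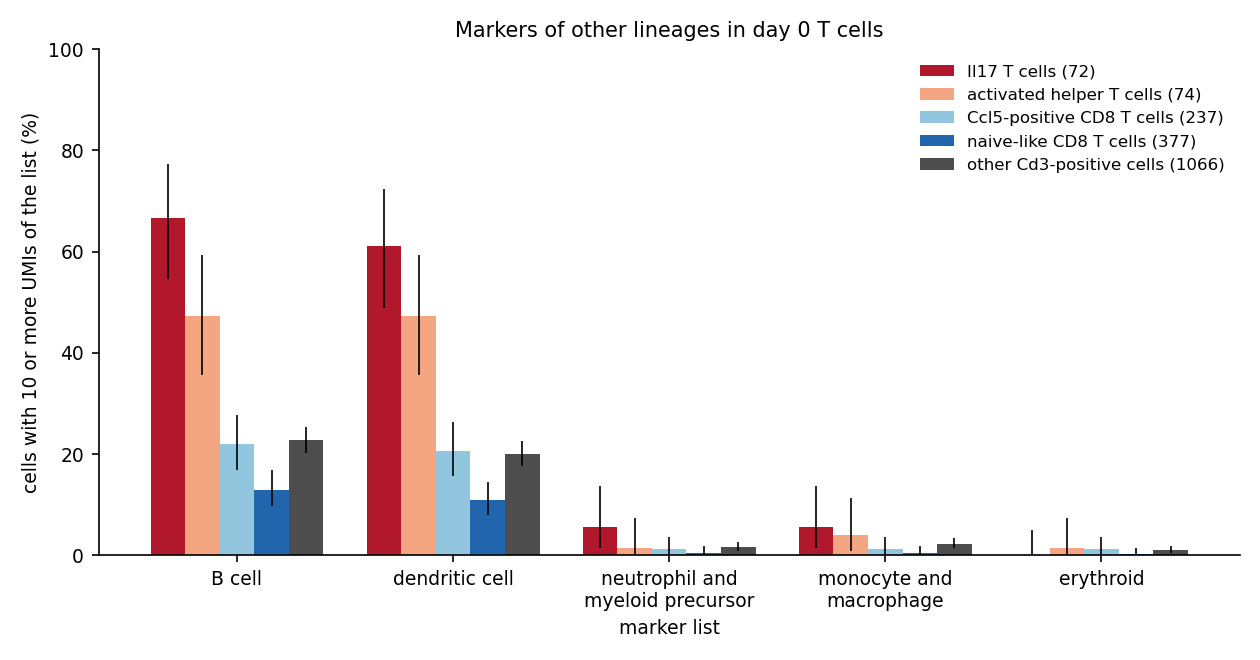
Share of day 0 T cells (y axis, percent) that held 10 or more UMIs of each of 5 marker lists of other lineages (x axis), for Il17 T cells and other T cell sets, with numbers of cells in the legend and exact 95% binomial intervals as bars. B cell and dendritic cell markers pass 10 UMIs in 66.7% and 61.1% of Il17 T cells, against 22.7% and 20.1% of the other Cd3-positive cells.

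Across 2275 genes with a mean level of at least 50 CPM, 161 genes (7.08%) passed a ratio of 2 in Il17 T cells over the other Cd3-positive cells and 29 (1.27%) lay at a ratio of 0.5 or below, the 5 rule genes left out. The median gene was 0.30 higher on the log2 scale, beside a lower share of ribosomal protein UMIs in Il17 T cells (33.8%, against 45.1% in the others). Scaled without ribosomal protein, mitochondrial and rule genes, the median gene was 0.03 higher, and of 3642 genes 144 were higher and 85 lower. Of the 161 higher genes, 116 were at least 2-fold higher among cells low in other lineages as well (26.6% of 2129 genes there), 88 among B cell RNA-rich cells (4.37% of 2424 genes) and 70 in both, while 9 were on the opposite side among cells low in other lineages. Of the 29 lower genes, these counts were 22 (2.54% of genes lower there), 17 (1.4%), 14 and 4, in the same order. In 15 of the 161 genes a single Il17 T cell held over 50% of the UMIs, among them S100a8, S100a9, Ngp, Ltf, Camp and Lcn2, granule and calprotectin genes of neutrophils, with 98.4 to 100% in 1 cell. These genes are not counted as features of the group below.

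The leading genes, by ratio and beyond such single-cell cases, were Tmem176a, Furin, Cxcr6, Ccr6, Tmem176b, Pxdc1 and Actn2. Tmem176a, whose product is a membrane protein of intracellular vesicles, had 0, 2 and 13 UMIs per Il17 T cell (lowest, median, highest) and 0, 0 and 11 per other cell. Its pooled level was 401 CPM in Il17 T cells and 24.5 CPM in the others, a ratio of 16.3 (13 to 20.5), and 65 of 72 Il17 T cells held a UMI against 57 of 1066 others. The ranges overlapped, but most Il17 T cells lay above the median of the others. The ratio was 47.9 among cells low in other lineages (630.5 CPM in Il17 T cells and 13.2 CPM in the others) and 9.16 among B cell RNA-rich cells. Its neighbour on chromosome 6, Tmem176b, stood at 378 CPM in Il17 T cells and 38.8 CPM in the others, a ratio of 9.73 (7.94 to 11.9).

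Cxcr6, the receptor for CXCL16 and a marker of tissue-resident T cells, had 0, 2 and 7 UMIs per Il17 T cell and 0, 0 and 6 per other cell. Its level was 390.3 CPM in Il17 T cells and 30.2 CPM in the others, a ratio of 12.9 (10.4 to 16), with a UMI in 62 of 72 Il17 T cells and 119 of 1066 others. Furin, a protease that matures secreted and surface proproteins, had 0, 2 and 15 UMIs per Il17 T cell against 0, 0 and 8 per other cell, and 438 CPM in Il17 T cells against 28.2 CPM in the others, a ratio of 15.5 (12.5 to 19.2). The per-cell ranges overlapped over 0 to 6 UMIs for Cxcr6 and 0 to 8 UMIs for Furin, while the medians differed. The ratios of Cxcr6 and Furin were 22.9 and 34.4 among cells low in other lineages and 11.9 and 11.6 among B cell RNA-rich cells. Pxdc1 stood at 273 CPM in Il17 T cells and 28.6 CPM in the others (ratio 9.54) and Actn2, an alpha-actinin best known from muscle, at 165 CPM in Il17 T cells and 20.3 CPM in the others (8.12, 6.02 to 10.9).

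**Figure D3:**
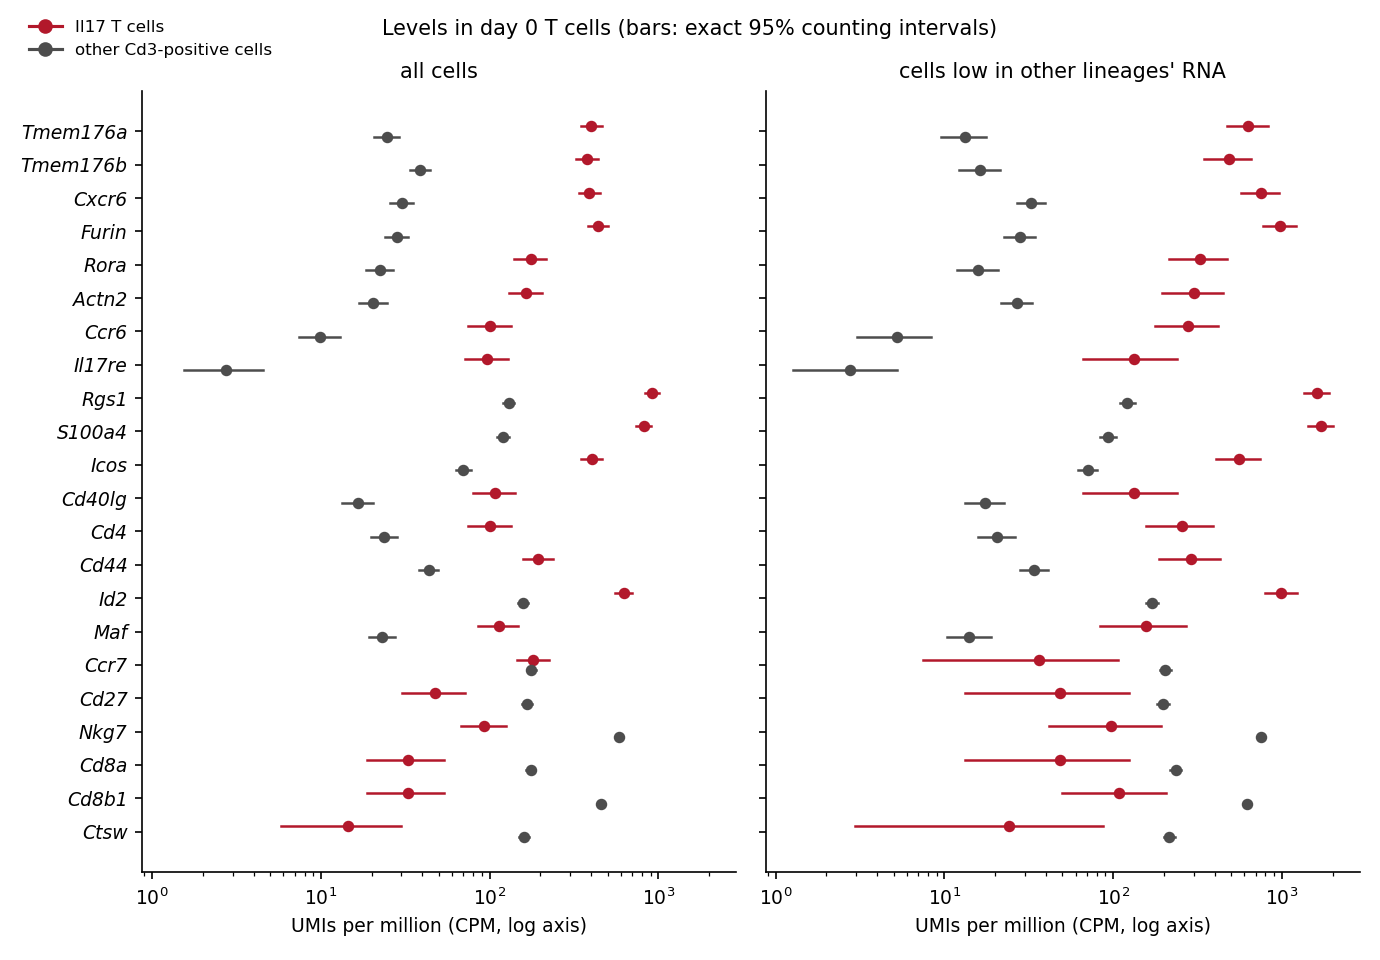
Pooled level in CPM (x axis, log scale) of 22 genes (y axis) in Il17 T cells (red) and other Cd3-positive cells (grey) of day 0, for all cells on the left and for cells low in other lineages on the right, with exact 95% counting intervals as bars. From Tmem176a down to Maf the red points lie to the right of the grey ones in both panels, and from Cd27 down to Ctsw they lie to the left, while Ccr7 lies level on the left panel (182 CPM in Il17 T cells against 177 CPM in the others) and lower in Il17 T cells on the right panel (36.4 CPM in Il17 T cells against 204 CPM in the others).

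Among the cytokines outside the rule, Il22 was higher in Il17 T cells but seen in few of them, and Ifng was lower. Il22, which acts on epithelial cells and is often made beside interleukin 17, had 24 UMIs in 10 of 72 Il17 T cells and 3 UMIs in 2 of 1066 others, that is 49.6 CPM in Il17 T cells and 0.550 CPM in the others, a ratio of 90.2 (27.4 to 468). Of its 24 UMIs, 22 lay in B cell RNA-rich cells. Tnf stood at 43.4 CPM in Il17 T cells and 18.0 CPM in the others (ratio 2.42), and Tnfsf11, which encodes RANKL, at 37.2 CPM in Il17 T cells and 10.3 CPM in the others (3.62, 2.0 to 6.26). Ifng, the cytokine of type 1 T cells, had 1 UMI in Il17 T cells against 109 in the others, a ratio of levels of 0.103 (0.00259 to 0.588). Il4, Il5, Il9, Il13, Il3 and Ccl20 were listed at 0 UMIs in Il17 T cells. Of 17 cytokine genes with a mean of at least 10 CPM, out of 34 listed, 10 were at least 2-fold higher and 4 lower, beside 12.2% and 2.27% of all 6862 genes at that level.

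These list counts, here and below, describe the genes that reached a mean of 10 CPM. A gene could reach it through the cells in which it was high, so the counts say nothing about the listed genes under it. A gene at 0 UMIs on either side entered the counts and medians as a bound set by a floor of 3 UMIs. The median log2 ratio of the 17 cytokine genes was 1.25, beside 0.33 for all 6862 genes, and among cells low in other lineages, where 13 reached the level, 4 were higher and 3 lower (0.31). For all genes at that level, 30.5% of 6258 were at least 2-fold higher and 4.91% lower among cells low in other lineages (median 0.50). Among B cell RNA-rich cells 8.31% of 6992 genes were higher and 5.28% lower (median 0.09), and of 17 cytokine genes there 8 were higher and 3 lower (0.98).

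Of the receptors that sustain type 17 cells, several were higher and the most specific were sparse. Il17re, a receptor chain for interleukin 17C, had 0, 0.5 and 3 UMIs per Il17 T cell and 0, 0 and 1 per other cell, and its level was 97.1 CPM in Il17 T cells and 2.75 CPM in the others (ratio 35.3, 19.4 to 68.0). It was seen in 36 of 72 Il17 T cells and not in the remaining cells at this depth. Il1r1, the interleukin 1 receptor, had 8 UMIs in Il17 T cells and 4 UMIs in the others (16.5 CPM in Il17 T cells and 0.733 CPM in the others, ratio 22.5, 6.04 to 102), and Il23r, the interleukin 23 receptor, had 2 UMIs in Il17 T cells and 0 UMIs in the others, for which no fold is given. Il18r1 stood at 107 CPM in Il17 T cells and 34.8 CPM in the others (3.08, 2.22 to 4.21), and Il7r, the receptor for the survival cytokine interleukin 7, at 273 CPM in Il17 T cells and 138 CPM in the others (1.98, 1.63 to 2.38). Il17ra, the shared receptor chain for interleukin 17, was at 37.2 CPM in Il17 T cells and 41.2 CPM in the others, and its ratio of 0.902 had an interval (0.525 to 1.46) that contained 1. In all, 6 of 21 measured receptor genes were at least 2-fold higher and 0 lower, with a median log2 ratio of 0.35, close to that of all genes. Among cells low in other lineages 10 of 21 were higher and 4 lower (0.95), and among B cell RNA-rich cells 9 of 22 were higher and 1 lower (0.46).

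Transcription factors of the type 17 programme were higher as a list. Of 21 measured genes 10 were at least 2-fold higher and 0 lower (median log2 ratio 0.96). Among cells low in other lineages 15 of 20 were higher and 0 lower (1.78), and among B cell RNA-rich cells 6 of 20 were higher and 0 lower (0.60). Rora, for ROR alpha, had 0, 1 and 6 UMIs per Il17 T cell against 0, 0 and 6 per other cell, and 176 CPM in Il17 T cells against 22.4 CPM in the others (7.85, 5.88 to 10.4).

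Id2, an inhibitor of E proteins needed by effector and tissue-resident lymphocytes, was seen in 71 of 72 Il17 T cells, with 0, 3 and 27 UMIs per Il17 T cell against 0, 0 and 17 per other cell, and 624 CPM in Il17 T cells against 157 CPM in the others (3.97, 3.47 to 4.53). Maf, a factor of interleukin 17-producing T cells, stood at 114 CPM in Il17 T cells and 23.1 CPM in the others (4.92, 3.52 to 6.81), and Bhlhe40, a factor of cytokine-producing helper cells, at 178 CPM in Il17 T cells and 48.9 CPM in the others (3.63, 2.81 to 4.65). Nr1d1, the clock repressor REV-ERB alpha, had 12 UMIs in Il17 T cells and 7 UMIs in the others (24.8 CPM in Il17 T cells and 1.28 CPM in the others, 19.3, 7.01 to 57.9). All of these factors were higher among cells low in other lineages too, with ratios of 20.6 for Rora, 5.86 for Id2 and 11.2 for Maf. Among B cell RNA-rich cells the ratios were smaller than over all cells for Rora (3.99), Maf (2.46) and Bhlhe40 (2.28). For Id2 the ratio there was 3.91. Zbtb16, the factor PLZF of innate-like T cells, had 1 UMI in Il17 T cells and 5 UMIs in the others, too few for a statement, and Foxp3, the factor of regulatory T cells, stood at 10.3 CPM in Il17 T cells and 11.7 CPM in the others (0.881, 0.277 to 2.16).

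Genes listed for gamma delta type 17 cells gave the highest median of all lists, but the list holds genes that other type 17 cells also express, and it was chosen with earlier results of these data known. Of 13 measured genes 11 were at least 2-fold higher and 0 lower (median log2 ratio 2.91), 13 of 14 were higher among cells low in other lineages (3.87) and 11 of 14 among B cell RNA-rich cells (2.51). Beside Tmem176a, Tmem176b and Actn2, these included Ltb4r1, the leukotriene B4 receptor, at 49.6 CPM in Il17 T cells and 5.13 CPM in the others (9.66, 5.36 to 17.3), and Aqp3, a water and glycerol channel, at 66.1 CPM in Il17 T cells and 8.79 CPM in the others (7.51, 4.65 to 12.0). Serpinb1a, a protease inhibitor, stood at 188 CPM in Il17 T cells and 46.9 CPM in the others (4.01), and Ramp1, a subunit of the receptor for the sensory neuropeptide CGRP, at 504 CPM in Il17 T cells and 174 CPM in the others (2.90, 2.51 to 3.34). Ramp1 was seen in 97.2% of Il17 T cells and 38.8% of the others.

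The defining genes of the gamma delta lineage were present in few cells. The gene table used here holds no gamma or delta chain constant genes, so the chain type could not be read directly. Cd163l1 (the scavenger receptor SCART1) had 8 UMIs in 4 Il17 T cells and 3 UMIs in 3 others, and all 4 of those Il17 T cells were B cell RNA-rich. 5830411N06Rik (SCART2) had 6 UMIs in Il17 T cells and 1 UMI in the others, and Sox13 had 1 UMI in Il17 T cells and 0 in the others. A UMI of any of these 3 genes was present in 9 of 72 Il17 T cells (12.5%, 5.88 to 22.4) and 4 of 1066 others (0.375%). Blk, a kinase shared by gamma delta type 17 cells and B cells, had 11 UMIs in Il17 T cells and 84 UMIs in the others, and all 11 lay in B cell RNA-rich cells.

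Helper T cell genes were seen in more of the Il17 T cells than those gamma delta genes. Cd4 had a UMI in 32 of 72 Il17 T cells (44.4%) and 100 of 1066 others (9.38%), with 101 CPM in Il17 T cells and 23.8 CPM in the others (4.25, 2.99 to 5.94). Cd40lg, the ligand by which helper cells signal to B cells and dendritic cells, had a UMI in 35 of 72 Il17 T cells (48.6%) and 69 of 1066 others (6.47%), with 107 CPM in Il17 T cells and 16.7 CPM in the others (6.44, 4.49 to 9.15). Cd4 or Cd40lg was seen in 50 of 72 Il17 T cells (69.4%, 57.5 to 79.8) and 144 of 1066 others (13.5%), and among cells low in other lineages in 17 of 20 Il17 T cells (85.0%) and 79 of 792 others (9.97%). Of the B cell RNA-rich Il17 T cells, 30 of 48 (62.5%) held a UMI of either gene. Cd4 alone was seen in 18 of these 48 (37.5%) and in 44 of 242 B cell RNA-rich others (18.2%). The ratios of levels among B cell RNA-rich cells were 2.28 for Cd4 and 6.09 for Cd40lg. Cd8a or Cd8b1 was seen in 6 of 72 Il17 T cells (8.33%) and 692 of 1066 others (64.9%). These classes overlapped within cells. A UMI of Cd163l1, 5830411N06Rik, Sox13 or Blk was present in 16 of 72 Il17 T cells, and 9 of 72 held such a UMI beside a Cd4 UMI. A Cd4 UMI lay beside a CD8 UMI in 4 of 72. The shares above are therefore not those of separate subtypes. None of the helper, CD8 and gamma delta genes was seen in 19 of 72 Il17 T cells (26.4%) and in 237 of 1066 others (22.2%), so the subtype of those 19 cells was not readable at this depth.

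S100a4, the gene whose promoter drives Cre in these mice, was detected in most of the Il17 T cells. It had 0, 4 and 21 UMIs per Il17 T cell (lowest, median, highest) and 0, 0 and 47 per other Cd3-positive cell, although all were sorted as YFP-positive. Its level was 818 CPM in Il17 T cells and 120.2 CPM in the others, a ratio of 6.80 (5.99 to 7.72), and 66 of 72 Il17 T cells (91.7%) and 143 of 1066 others (13.4%) held a UMI. Among cells low in other lineages it stood at 1697 CPM in Il17 T cells and 93.4 CPM in the others (18.2, 14.8 to 22.3), and among B cell RNA-rich cells at 694 CPM in Il17 T cells and 155 CPM in the others (4.49). S100a4 was thus higher in Il17 T cells in both subsets of like cells.

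Its relatives and other small cytoskeletal and calcium-binding genes were higher as well. Of 26 measured S100, annexin, galectin and cytoskeletal genes 15 were at least 2-fold higher and 0 lower, with a median log2 ratio of 1.30 (1.33 among cells low in other lineages and 1.03 among B cell RNA-rich cells). S100a6 had 0, 6 and 69 UMIs per Il17 T cell against 0, 0 and 55 per other cell, and 1351 CPM in Il17 T cells against 328 CPM in the others (4.11, 3.75 to 4.5). Lgals3, for galectin 3, stood at 419 CPM in Il17 T cells and 85.2 CPM in the others (4.92), Lgals1, for galectin 1, at 1607 CPM in Il17 T cells and 553 CPM in the others (2.91), and Capg, an actin-capping protein, at 522 CPM in Il17 T cells and 133 CPM in the others (3.93). Vim, for vimentin, was at 1107 CPM in Il17 T cells and 436 CPM in the others (2.54). S100a8 and S100a9 were counted among the 15 but, as said, rested on 1 cell. Tmsb10, for thymosin beta 10, was lower, at 4983 CPM in Il17 T cells and 7401 CPM in the others (0.673, 0.646 to 0.702), within 2-fold.

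Homing and residency genes, here and in the next paragraph, included higher, level and lower members. Ccr6, whose ligand is CCL20, stood at 101 CPM in Il17 T cells and 9.89 CPM in the others (10.2, 6.80 to 15.3), and Ccr4 at 45.4 CPM in Il17 T cells and 4.03 CPM in the others (11.3, 5.95 to 21.3). Ccr2, the receptor for monocyte chemoattractant proteins, was at 101 CPM in Il17 T cells and 23.3 CPM in the others (4.35), and Cd44, the hyaluronan receptor of antigen-experienced T cells, at 194 CPM in Il17 T cells and 43.8 CPM in the others (4.43, 3.45 to 5.65). Ccr6 is also a B cell gene, and its ratio was 53.6 among cells low in other lineages and 3.86 among B cell RNA-rich cells. Rgs1, which dampens chemokine receptor signals and is high in resident T cells, had 0, 5 and 32 UMIs per Il17 T cell against 0, 0 and 15 per other cell, and 917 CPM in Il17 T cells against 130.3 CPM in the others (7.04, 6.24 to 7.94). Itgae, the CD103 integrin chain, was 2.67-fold higher (66.1 CPM in Il17 T cells and 24.7 CPM in the others), while Cd69 was level (190.0 CPM in Il17 T cells and 193 CPM in the others, 0.987).

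Ccr7, a receptor that returns T cells to lymph nodes, differed between subsets of like cells. It was level over all cells, at 182 CPM in Il17 T cells and 177 CPM in the others (1.03, 0.816 to 1.28), but at 36.4 CPM in Il17 T cells and 204 CPM in the others among cells low in other lineages (0.179, 0.0367 to 0.524), a value that rests on 3 UMIs in 2 Il17 T cells. Among B cell RNA-rich cells it stood at 202 CPM in Il17 T cells and 174 CPM in the others. B cells express Ccr7 too. Klf2, a factor of recirculating T cells, stood at 388 CPM in Il17 T cells and 691 CPM in the others (0.562). Cxcr3, the chemokine receptor of type 1 T cells, had 4 UMIs in Il17 T cells and 153 UMIs in the others (8.26 CPM in Il17 T cells and 28.0 CPM in the others, 0.295, 0.0793 to 0.770). Of 27 measured homing genes 10 were at least 2-fold higher and 2 lower (median log2 ratio 0.76). Among cells low in other lineages 15 of 25 were higher and 4 lower (1.54), and among B cell RNA-rich cells 10 of 27 were higher and 2 lower (0.21).

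Costimulatory and helper surface genes included both higher and lower members. Icos had 0, 2 and 9 UMIs per Il17 T cell and 0, 0 and 8 per other cell, and 403 CPM in Il17 T cells and 70.0 CPM in the others (5.75, 4.82 to 6.86). Tnfsf8, for CD30 ligand, stood at 202 CPM in Il17 T cells and 43.2 CPM in the others (4.68), and Tnfrsf25, a death receptor that costimulates effector T cells, at 70.2 CPM in Il17 T cells and 15.2 CPM in the others (4.62). Cd27, a costimulatory receptor lost by many interleukin 17-producing gamma delta cells, stood at 47.5 CPM in Il17 T cells and 166 CPM in the others (0.286, 0.180 to 0.432) and was lower in both subsets of like cells too. Izumo1r, for folate receptor 4, was at 20.6 CPM in Il17 T cells and 85.2 CPM in the others (0.242). Over the 20 measured genes of the costimulatory and checkpoint list, 6 were at least 2-fold higher and 2 lower (median log2 ratio 0.60). The numbers among cells low in other lineages were 10 of 17 higher and 1 lower (1.31), and among B cell RNA-rich cells 4 of 21 were higher and 3 lower (0.05).

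Many naive, CD8 and cytotoxic genes were lower than in the other Cd3-positive cells, most of which held a CD8 UMI. Lef1, a factor of naive T cells, had 3 UMIs in Il17 T cells and 1088 UMIs in the others (6.20 CPM in Il17 T cells and 199 CPM in the others, 0.0311, 0.00640 to 0.0911). Dapl1 stood at 16.5 CPM in Il17 T cells and 284 CPM in the others (0.0581, 0.0250 to 0.115), Cd8b1 at 33.0 CPM in Il17 T cells and 456 CPM in the others (0.0724, 0.0413 to 0.118) and Nkg7, a granule membrane protein of cytotoxic cells, at 92.9 CPM in Il17 T cells and 585 CPM in the others (0.159, 0.116 to 0.213). The comparison cells included 692 cells with a CD8 UMI. Cd8a stood at 33.0 CPM in Il17 T cells and 175 CPM in the others, and 62.5% of its UMIs in Il17 T cells lay in 1 cell. Ctsw, for cathepsin W, was at 14.5 CPM in Il17 T cells and 159.6 CPM in the others (0.0906), and Klrd1, for the natural killer receptor CD94, at 41.3 CPM in Il17 T cells and 212 CPM in the others (0.195). Gzma, Gzmb, Gzmk, Gzmm and Prf1, which encode granzymes and perforin, were listed at 0 UMIs in Il17 T cells. Ccl5 stood at 1037 CPM in Il17 T cells and 2519.9 CPM in the others (0.411), with 56.4% of its UMIs in 1 Il17 T cell. In the CD8 and cytotoxic list 1 of 15 measured genes was at least 2-fold higher and 10 were lower (median log2 ratio -2.36), and in the naive list 0 of 19 were higher and 7 lower (-0.76). The CD8 and cytotoxic list had 2 of 19 higher and 9 lower among cells low in other lineages, with a median of -0.26, and 1 of 12 higher and 7 lower among B cell RNA-rich cells (-1.44). Genes at 0 UMIs entered these medians as bounds set by the floor of 3 UMIs. That floor is a higher level in the 20 cells (82480 UMIs in all) than in the 72 cells (484261 UMIs). The median of -0.26 is therefore not directly comparable with that over all cells. The naive list had 0 of 19 higher and 10 lower among cells low in other lineages (-1.61), and 0 of 18 higher and 5 lower among B cell RNA-rich cells (-0.61).

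Genes of receptor signalling, metabolism, cell division and interferon response had list medians from -0.31 to 0.48 on the log2 scale, beside 0.33 for all genes. Of 29 measured T cell receptor signalling genes 1 was at least 2-fold higher and 2 lower (median log2 ratio 0.16). Of 31 immediate early and stress genes 6 were higher and 1 lower (0.48), with Klf4 at 217 CPM in Il17 T cells and 63.8 CPM in the others (3.40, 2.71 to 4.24), Gadd45b at 273 CPM in Il17 T cells and 90.5 CPM in the others (3.01) and Fosb at 179.7 CPM in Il17 T cells and 71.1 CPM in the others (2.53). Glycolysis genes had 3 of 16 higher (0.30), among them Egln3, an oxygen-sensing hydroxylase, at 37.2 CPM in Il17 T cells and 7.69 CPM in the others (4.83). Lipid genes had 3 of 16 higher (0.26), with Fabp5, a fatty acid carrier, at 80.5 CPM in Il17 T cells and 31.1 CPM in the others (2.59). Cell cycle genes had 0 of 23 higher and 1 lower (0.09), but 9 of 16 higher and 0 lower among cells low in other lineages (1.14), and 0 of 23 higher and 7 lower among B cell RNA-rich cells (-0.71). A UMI of Mki67 or Top2a was seen in 14 of 72 Il17 T cells (19.4%, 11.1 to 30.5) and 110 of 1066 others (10.3%). In the interferon list 1 of 18 was higher, Ly6a at 248 CPM in Il17 T cells and 108 CPM in the others, and 1 lower (-0.31). In cells low in other lineages the medians were 0.50 for receptor signalling, 0.80 for immediate early, 0.65 for glycolysis, 0.55 for lipid and 0.02 for interferon genes. Among B cell RNA-rich cells they were 0.22 for receptor signalling, 0.35 for immediate early, 0.14 for glycolysis, 0.02 for lipid and -0.23 for interferon genes.

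The Il17 T cells were also set beside the activated helper T cells, 74 of the other Cd3-positive cells with at least 2 UMIs of Icos and Tnfrsf4 together and no CD8 UMI, so those genes are fixed by the choice. The name rests on those genes alone. None of the helper, CD8 and gamma delta genes was seen in 27 of these 74 cells (36.5%). B cell markers passed 10 UMIs in 48 of 72 Il17 T cells (66.7%) and in 35 of 74 activated helper cells (47.3%). Against them, of 2500 genes at 50 CPM or more, 77 (3.08%) were at least 2-fold higher and 36 (1.44%) lower in Il17 T cells, and the median gene differed by -0.01 on the log2 scale. S100a4 was close, at 818 CPM in Il17 T cells and 636 CPM in activated helper cells (1.29, 1.10 to 1.5), as were Capg (522 CPM in Il17 T cells and 499 CPM in activated helper cells, 1.05, 0.873 to 1.26) and Lgals1 (1607 CPM in Il17 T cells and 1399 CPM in activated helper cells, 1.15). The S100a4 ratio was thus 6.80 over all other Cd3-positive cells and 1.29 over the activated helper cells among them. Bhlhe40 stood at 178 CPM in Il17 T cells and 189 CPM in activated helper cells, and Tnfsf8 at 202 CPM in Il17 T cells and 185 CPM in activated helper cells. Cd4 or Cd40lg was seen in 50 of 72 Il17 T cells (69.4%, 57.5 to 79.8) and 42 of 74 activated helper cells (56.8%, 44.7 to 68.2), with overlapping intervals.

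Most of the leading genes were higher in Il17 T cells than in activated helper cells too. Actn2 stood at 165 CPM in Il17 T cells and 21.5 CPM in activated helper cells (7.68, 3.97 to 16.6), Il17re at 97.1 CPM in Il17 T cells and 19.3 CPM in activated helper cells (5.02, 2.43 to 11.6) and Cxcr6 at 390.3 CPM in Il17 T cells and 79.5 CPM in activated helper cells (4.91, 3.44 to 7.18). Furin was 4.53-fold higher (438 CPM in Il17 T cells and 96.7 CPM in activated helper cells), and Tmem176a 4.44-fold higher (401 CPM in Il17 T cells and 90.3 CPM in activated helper cells). For Rora the ratio was 1.54 (1.08 to 2.21), and for Maf 1.32, with an interval (0.863 to 2.04) that contained 1. Genes lower in Il17 T cells than in activated helper cells, named after their values were seen, included Izumo1r at 20.6 CPM in Il17 T cells and 365 CPM in activated helper cells (0.0565, 0.0266 to 0.106), Foxp3 at 10.3 CPM in Il17 T cells and 73.1 CPM in activated helper cells (0.141), Tox at 22.7 CPM in Il17 T cells and 133 CPM in activated helper cells (0.170) and Ikzf2, for Helios, at 37.2 CPM in Il17 T cells and 211 CPM in activated helper cells (0.176). Ctla4, an inhibitory receptor, was at 76.4 CPM in Il17 T cells and 174 CPM in activated helper cells (0.439, 0.289 to 0.655). Foxp3, the factor of regulatory T cells, was higher in the activated helper set than in the other Cd3-positive cells as a whole. So was Izumo1r, at 85.2 CPM in the latter. The part of such cells of the comparison set in these ratios was not tested. Some naive and cytotoxic genes were not lower in this comparison. Nkg7 stood at 92.9 CPM in Il17 T cells and 73.1 CPM in activated helper cells. Dapl1 stood at 16.5 CPM in Il17 T cells and 8.60 CPM in activated helper cells. Lef1 was still lower, at 6.20 CPM in Il17 T cells and 70.9 CPM in activated helper cells.

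**Figure D4:**
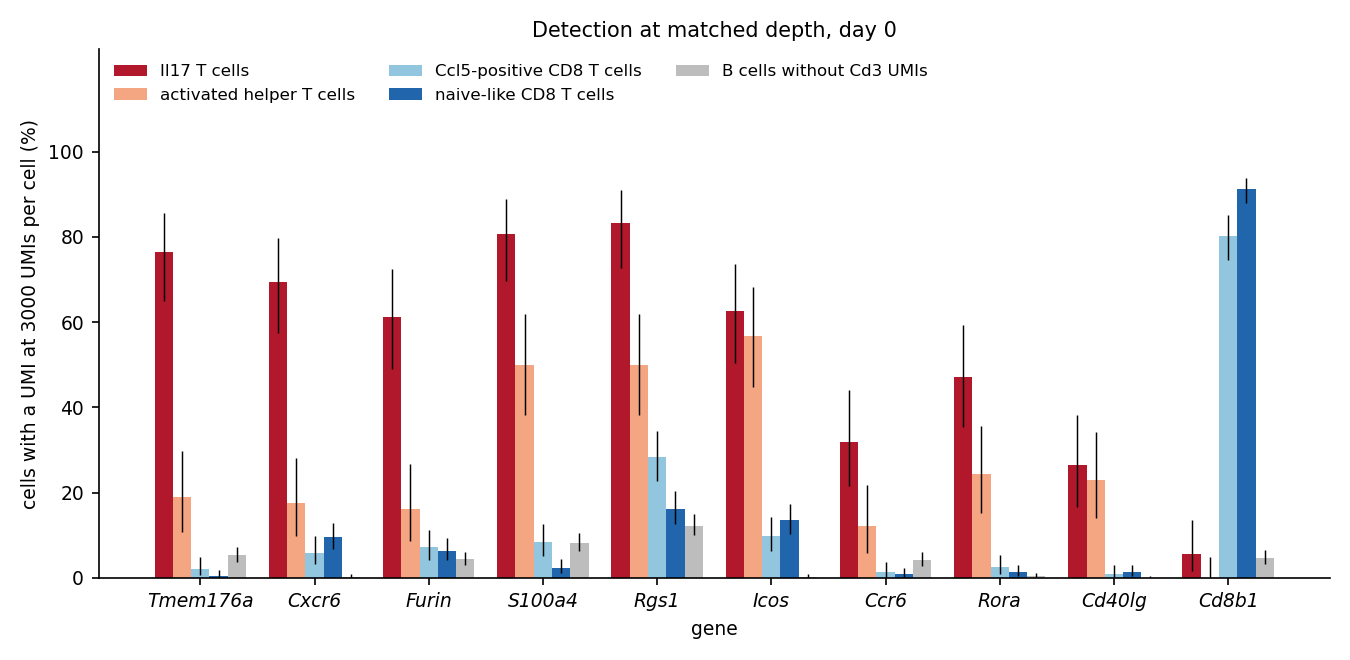
Share of cells with at least 1 UMI (y axis, percent) of 10 genes (x axis) after every cell was thinned to 3000 UMIs, for Il17 T cells, activated helper T cells, Ccl5-positive CD8 T cells, naive-like CD8 T cells and B cells without Cd3 UMIs of day 0, with exact 95% binomial intervals as bars. Tmem176a is seen in 76.4% of Il17 T cells, against 18.9% of activated helper cells and 5.35% of B cells. The Icos share of activated helper cells is set by how they were chosen.

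The plot of detection at matched depth gives shares after thinning. With 3000 UMIs per cell, Cxcr6 was seen in 69.4% of Il17 T cells, 17.6% of activated helper cells, 5.91% of Ccl5-positive CD8 cells and 9.55% of naive-like CD8 cells; unthinned, the shares of these CD8 sets were 12.7% of Ccl5-positive and 11.4% of naive-like cells, in the opposite order. S100a4 was seen in 80.6% of Il17 T cells, 37 of 74 activated helper cells, 8.44% of Ccl5-positive and 2.39% of naive-like CD8 cells. Ccr6 was seen in 31.9% of Il17 T cells, 12.2% of activated helper cells, 1.27% of Ccl5-positive and 0.796% of naive-like CD8 cells. Thinned shares in Il17 T cells are set here beside those in B cells without Cd3 UMIs. S100a4 was seen in 80.6% of Il17 T cells and 8.17% of these B cells, Tmem176a in 76.4% of Il17 T cells and 5.35% of B cells, Cxcr6 in 69.4% of Il17 T cells and 0.282% of B cells, and Rora in 47.2% of Il17 T cells and 0.423% of B cells. B cells held other named genes more often. Pxdc1 was seen in 59.7% of Il17 T cells and 17.6% of B cells, Serpinb1a in 43.1% of Il17 T cells and 23.8% of B cells, and Ramp1 in 83.3% of Il17 T cells and 25.1% of B cells. Capg was seen in 79.2% of Il17 T cells and 34.6% of B cells, and Lgals1 in 88.9% of Il17 T cells and 44.9% of B cells.

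Some cells without an Il17 UMI carried genes that were high in Il17 T cells. The genes combined here were already seen to be higher in these same 72 cells. A gap in their joint share follows from that choice, so the shares are a description only. A UMI of Tmem176a or Tmem176b together with UMIs of Cxcr6 and S100a4 was present in 57 of 72 Il17 T cells (79.2%, 68.0 to 87.8) and in 25 of 1066 others (2.35%, 1.52 to 3.44). Among cells low in other lineages the numbers were 19 of 20 Il17 T cells and 11 of 792 others. Of the activated helper cells 13 of 74 (17.6%) carried all of them, and of the cells without a Cd3 UMI 2 of 1327 (0.151%). Whether the 25 cells had transcribed Il17 genes below detection could not be read from these counts.

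Among the 72 cells themselves, subsets were compared by their pooled levels. The 32 cells with a Cd4 UMI had 335 CPM of Il17a and the 40 without one had 393 CPM (0.853, 0.623 to 1.16). For Il17f the level was 363 CPM with Cd4 and 408 CPM without (0.891, 0.658 to 1.2), and for S100a4 830.4 CPM with Cd4 and 808 CPM without (1.03, 0.838 to 1.26). All 3 intervals contained 1. Cd44 was higher in the cells with a Cd4 UMI, at 259.5 CPM, against 143 CPM in those without (1.81, 1.18 to 2.81), and Id2 was at 774 CPM with Cd4 and 507 CPM without (1.53, 1.21 to 1.93). A further split, by which of Il17a and Il17f was seen, was made on UMIs that the rule used. The genes given for it were picked after their values were seen, so they are a description only. The 34 cells with both Il17a and Il17f UMIs had 73.5 CPM of Ccr6, and the 27 cells with Il17f alone had 153 CPM (0.481, 0.249 to 0.912). Actn2 stood at 220.5 CPM in cells with both and 123 CPM in cells with Il17f alone (1.79, 1.06 to 3.12). Genes outside the type 17 programme differed in this split too. S100a6 stood at 1057 CPM in cells with both and 1750 CPM in cells with Il17f alone (0.604, 0.510 to 0.716). Nkg7 had 43 UMIs in cells with both and 1 UMI in cells with Il17f alone.

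The 45 cells with 3 or more Il17 UMIs were set against the 27 with 1 or 2, a split made on UMIs that the rule used. Genes differed in both directions, and several type 17 genes did not differ beyond counting error. Rora stood at 216 CPM in cells with 3 or more and 111 CPM in cells with 1 or 2 (1.94, 1.17 to 3.35). Furin stood at 524 CPM in cells with 3 or more and 303 CPM in cells with 1 or 2 (1.73, 1.27 to 2.39), and Actn2 at 213 CPM with 3 or more and 90.2 CPM with 1 or 2 (2.36, 1.36 to 4.30). Ccr7 was lower in cells with 3 or more, at 77.7 CPM, against 345 CPM with 1 or 2 (0.225, 0.134 to 0.367). For Tmem176a the level was 409 CPM with 3 or more and 387 CPM with 1 or 2, and the interval of the ratio contained 1 (1.06, 0.783 to 1.43). Tmem176b was lower in cells with 3 or more, at 321 CPM, against 467 CPM with 1 or 2 (0.687, 0.509 to 0.929). The intervals for Il17re (0.938), Ccr6 (1.01), Il1r1 (1.06), Il22 (0.753) and Maf (1.42) also contained 1. The 48 B cell RNA-rich Il17 T cells had 383 CPM of Il17a and the 24 other Il17 T cells 337 CPM (1.13, 0.819 to 1.59), and Tmem176a stood at 395 CPM in the B cell RNA-rich cells and 411 CPM in the other Il17 T cells (0.962, 0.710 to 1.31). S100a4 stood at 694 CPM in the B cell RNA-rich Il17 T cells and 1061 CPM in the other Il17 T cells (0.654, 0.534 to 0.802). None of these splits was tested, and single cells weigh heavily at these numbers.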

How the data were processed

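The authors deposited 1 gene-by-cell table of raw UMI counts per library. The processing notes of the submitters name Cell Ranger 2.1.1, STAR and the mm10 build; how cells were called, and the annotation used, are not given in the sources used here. Per the labels, cells came from sorted hindlimb muscle suspensions. The gene table lists 27998 genes, of which 27645 identifiers matched GENCODE M21, and 56 symbols belong to more than 1 identifier.

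Barcodes with under 500 genes or over 10% mitochondrial UMIs were left out of the count tables (17 at day 28 and 2 at day 0). All deposited barcodes, before any were left out, held 38785525 UMIs at day 28 and 19574562 at day 0. Samples were grouped by their labels. The members, cell sets and 24 gene lists (449 of 457 listed genes present) were chosen with earlier results of these data known. A few genes are not reported here.

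UMIs were summed over cells, divided by all UMIs of the set and scaled to 1000000 (CPM). Ratios carry exact conditional binomial 95% intervals, levels exact Poisson ones and shares Clopper-Pearson ones. For a gene or cell count of 0, a floor of 3 was used. No test was run, since cells of 1 library are not replicates. Named genes were the 15 highest and 15 lowest ratios at a mean of 50 CPM, the 3 highest and 3 lowest of each list at 10 CPM, and a fixed set of type 17 and lineage genes; other genes named in the text were chosen after their values were seen. Doublets were scored with Scrublet (0.8% per 1000 barcodes) and kept, and leaving them out was an alternative. The ratio procedure was checked on simulated counts. Alternatives changed the cell rule, the comparison cells, scaling, depth, level filter and other-lineage RNA. Python 3.11.15, numpy 2.4.6, scipy 1.17.1, pandas 2.3.3, scanpy 1.11.5 and matplotlib 3.10.9 were used.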

Additional observations from a re-analysis of the deposited data

How the results depend on the processing

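No paired analysis was possible because each group had 1 library. With the main settings 161 genes were at least 2-fold higher and 29 lower. Thinning to 3000 UMIs gave 287 higher, and the mean of per-cell CPM 250 higher. Scaling without ribosomal protein, mitochondrial and rule genes gave 85 lower. Leaving out cells with 2 or more other-lineage UMIs gave 560 and 57, and comparison cells without UMIs of CD8 and naive T cell genes gave 94 and 49. Without the top cell of each gene the counts were 98 and 45, at 10 CPM 834 and 156, and with no minimum 2206 and 481. Among cells split after seeing the data, cells low in other lineages gave 566 and 54, B cell RNA-rich cells 106 and B cell RNA-poor cells 399 and 59.

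The day 28 share was 0% with 2 or more Il17 UMIs or 2 or more Cd3 UMIs asked and 0.379% with no Cd3 UMI asked, and the day 0 share was 2.06% with 2 Il17 UMIs.

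Of 2493 recomputed values of genes and lists, 1840 stayed within the error of the main value and 620 moved by more. Of those at least 2-fold apart at first, 33 changed sign, and the cause was not tested. Their log2 ratios were, with others of 1 Cd3 UMI, -0.26 for Fcgr3; without CD8 and naive genes, -0.63 for Fcgr3, 0.040 for Slpi, -0.27 for Itgam, -1.85 for Zbtb16, 1.32 for Ccr9, 0.15 for Igfbp4 and -0.12 for Cpt1a; without cells with other-lineage UMIs, 0.29 for Nr4a2, 0.90 for Car2, 0.12 for Ccr9 and 1.10 for Hba-a2. Without the top cell they were -2.14 for S100a8, -2.06 for S100a9, -0.93 for Camp and -1.68 for Wfdc21, and without 4 myeloid-rich cells -0.70 for Camp. Low in other lineages, Tox was 0.10 and Cdc20 0.66. B cell RNA-rich cells gave -0.21 for Flt3, 0.090 for Hbb-bs, 0.0545 for Hba-a1, 0.94 for Hba-a2, -0.15 for Cpt1a, -0.0082 for the dendritic list and 0.0545 for the erythroid list. B cell RNA-poor cells gave 1.19 for Slpi, -1.84 for S100a8, -2.66 for S100a9, 1.15 for Cdc20, -0.59 for Camp, 0.080 for Ccr9 and -0.59 for Wfdc21.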

Other observations

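Lists not described so far gave the following values, at a mean of 10 CPM in Il17 T cells against the other Cd3-positive cells of day 0. Of 16 factors of other T cell programmes 2 were at least 2-fold higher and 3 lower (median log2 ratio -0.17, and 0.10 among cells low in other lineages). The helper T cell list had 6 of 15 higher and 2 lower (0.67, and 1.63 among cells low in other lineages and 0.18 among B cell RNA-rich cells), and the innate lymphoid and natural killer list 1 of 6 higher and 1 lower (0.56). Of the lists of other lineages, B cell markers had 3 of 10 higher (0.89), monocyte and macrophage markers 4 of 6 (1.22), neutrophil and precursor markers 4 of 9 (0.93) and dendritic cell markers 4 of 7, with 1 lower (1.08). The neutrophil and precursor values rest on few cells and are no feature of the group. Only 4 of 72 Il17 T cells held 10 or more UMIs of that list, with up to 2081 in 1 cell. Among cells low in other lineages, which were chosen for few UMIs of these markers, the median was -0.36 over 3 dendritic cell genes. Of 7 erythroid genes 7 were lower (-3.53), while among cells low in other lineages 4 of 5 were higher and 0 lower (1.18), and 1 gene of the fibroblast, endothelial and muscle list reached the level. The erythroid values over all cells rest on few comparison cells. Only 11 of 1066 others held 10 or more erythroid UMIs, with up to 4682 in 1 cell.

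Single Il17 UMIs also occurred in cells without a Cd3 UMI. The 4 day 0 cells with an Il17 UMI and no Cd3 UMI held 1 such UMI each, and 7 day 28 cells held an Il17 UMI without a Cd3 UMI.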
